A study of Homo sapiens with 8 samples.

Results

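ZRSR2 guide 1 was compared with non-targeting guides in SET-2 cells. This human line was derived from essential thrombocythemia that had transformed to a megakaryoblastic leukemia, and all of its cells, controls included, have an activating JAK2 mutation. The comparison takes 6 of the 8 RNA sequencing libraries of the series. These are the 2 libraries labelled with ZRSR2 guide 1 and all 4 non-targeting libraries, chosen by their labels. Cells received a lentiviral vector that carries GFP and 1 guide RNA. Guide 1 against ZRSR2 was used once in each of 2 experiments, and so was each of 2 non-targeting guides, so each guide 1 library had 2 controls of its own experiment. Per the labels, total RNA was taken 20 days after transduction in biological replicate 1 and after 25 days in biological replicate 2, and reading these as experiments 1 and 2 is an assumption. The source of Cas9, any sorting for GFP and the clonal state of the cells are not given in the sources used here. Libraries of 1 experiment need not be separate cultures, so p-values measure only the spread between these samples, which may be technical. The 2 libraries of ZRSR2 guide 2 are used only where values are set beside those of guide 1.

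ZRSR2 is a zinc-finger splicing factor related to U2AF1, and it helps to recognise the 3′ end of minor, U12-type introns. These rare introns are removed by a separate, minor spliceosome, and a transcript that keeps one may be degraded or give a truncated protein. Loss of ZRSR2 is known from myeloid neoplasms. The deposited gene counts follow the level of a transcript, not whether a given intron was removed.

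The guides themselves are shown first, because every comparison here turns on them. Guide 1 matched 3 transcripts, all of ZRSR2, among 206694 GENCODE 29 transcripts. It lies at chrX:15790515-15790534 on the plus strand of GRCh38, in the coding part of exon 1 of 11, ending 2 bases before the end of that exon. Guide 2 matched 1 transcript, also of ZRSR2, at chrX:15815821-15815840 on the plus strand, in the coding part of exon 8 of 11. Its site is followed by AGG, the motif that Cas9 from Streptococcus pyogenes needs, and the intron bases that follow guide 1 were not used here. Neither non-targeting guide matched a transcript. The ZRSR2 sites below are written 5′ to 3′ with the guide in capitals. The stretch printed for guide 1 starts at the first coding base of ZRSR2, inside exon 1, which itself starts upstream at chrX:15790472.
ZRSR2 guide 1, chrX:15790496-15790536: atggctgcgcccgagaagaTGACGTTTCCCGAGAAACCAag
ZRSR2 guide 2, chrX:15815791-15815870: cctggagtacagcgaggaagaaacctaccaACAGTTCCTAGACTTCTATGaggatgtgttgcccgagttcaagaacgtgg
non-targeting guide 1: gacggaggctaagcgtcgcaa
non-targeting guide 2: gcgcttccgcggcccgttcaa

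Guide 1 libraries held 36109769 and 43707812 expected counts in experiments 1 and 2, and the controls 31106042 to 71521173. Between 17339 and 18398 genes had a count. The megakaryoblastic markers ITGA2B, ITGB3, GP9, GATA1, NFE2 and TAL1 were present in all 8 libraries. ITGA2B, the platelet integrin, was at 2086 to 2731 CPM, the unit of counts scaled to library size, here with TMM factors. The lowest of these was GP9, at 20.9 to 35.2 CPM, and the platelet gene GP1BB of the wider list had no count in any library. The first principal component, with 74.5% of the variance, separated experiment 1 from experiment 2. On the second, with 7.39%, the non-targeting guide 2 library of experiment 2 stood at −31.3 and the other 7 libraries between −5.94 and 22.7. The value of 22.7 was the guide 1 library of experiment 2, which also had the fewest genes with a count, 17339. That non-targeting library stands apart, so calls that depend on it are given with and without it. Leaving it out also takes its difference from the other control of experiment 2 out of the spread. Without that other control, non-targeting guide 1 of experiment 2, edgeR called 0 genes. At an unadjusted edgeR p under 0.05 that fit had 1370 of 14975 genes. The fit without non-targeting guide 2 of experiment 2 had 1421 of 15001, and the 6 libraries had 538 of 15102.

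The targeted gene was examined first. ZRSR2 (chrX:15790472-15823260) was at 29.5 and 28.2 CPM in the guide 1 libraries of experiments 1 and 2. The controls were at 37.8 and 39.2 CPM in experiment 1 and at 39.5 and 41.5 CPM in experiment 2. Both guide 1 libraries lay below all 4 controls, and their mean of 28.9 ± 0.865 CPM (SD, n = 2) was 73.1% of the control mean of 39.5 ± 1.52 CPM (SD, n = 4). An indel at the site need not lower the transcript, so the level does not give the share of edited alleles. A two-sided exact permutation test over the 15 arrangements gave p = 0.0667, the smallest possible, and within experiments the exact p was 0.111, again the smallest. On the log2 scale guide 1 differed by −0.45 (SE 0.10), with an edgeR adjusted p of 1.00 and a DESeq2 adjusted p of 0.118. Without the non-targeting guide 2 library of experiment 2 it was −0.43, with an edgeR adjusted p of 0.0240. Leaving out non-targeting guide 1 of experiment 2 instead gave an edgeR adjusted p of 0.272, and 12 of the 13 alternatives did not pass.

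The guide 2 libraries held less ZRSR2 transcript than those of guide 1. They were at 22.9 and 18.7 CPM, 52.7% of the control mean, and both lay below both guide 1 libraries. The difference of guide 1 from guide 2 was 0.47 on the log2 scale (SE 0.13), with an edgeR adjusted p of 1.00 over all genes, so the gap between guides did not pass the threshold.

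**Figure D1:**
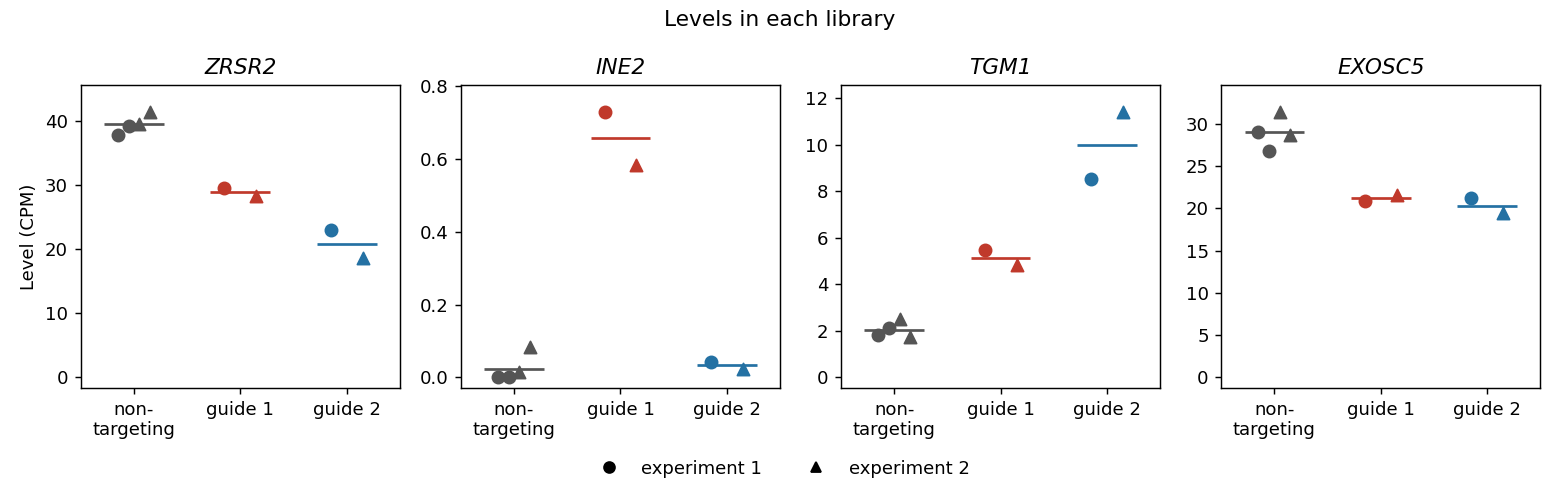
Level in CPM (vertical axes, linear, each gene on its own scale) of ZRSR2, INE2, TGM1 and EXOSC5 in the 4 non-targeting, 2 guide 1 and 2 guide 2 libraries. Circles are experiment 1, triangles experiment 2 and bars group means. In the ZRSR2, TGM1 and EXOSC5 panels both ZRSR2 guides lie on the same side of all controls, and in the INE2 panel guide 1 stands at 0.731 and 0.585 CPM while guide 2 stays at the control level.

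The gene of smallest p lay beside the guide 1 site. INE2 is an antisense non-coding gene at chrX:15785716-15787589 on the minus strand, 2926 bases from the guide 1 site and 28232 bases from the guide 2 site, and it overlaps CA5B on the other strand. It falls below the 1 CPM that the naming rule asks for and was chosen after its values were seen. The guide 1 libraries had 26 and 26 counts. The controls had 0 and 0 counts in experiment 1 and 1 and 3 in experiment 2, and the guide 2 libraries 2 and 1. Counts summed over libraries and scaled by library size gave a ratio of guide 1 to non-targeting of 27.7 (95% exact interval 10.2 to 105, counting error only). Because INE2 was chosen for these counts, this interval and those below describe the counts and test nothing. Of the 4 control counts, 3 were in the library that stands apart, and without it the ratio was 87.2 (15 to 3510). Against guide 2 the ratio was 19.4 (6.30 to 97.3), and guide 2 against non-targeting was 1.42 (0.208 to 8.41).

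INE2 was above every control in both guide 1 libraries and at the control level in both guide 2 libraries. It passed the filter on low counts only through the guide 1 libraries, so it could enter the test only by being higher there. Its edgeR adjusted p was 0.0920 over the 6 libraries and 0.0263 when all 8 shared one spread. It was 7.56e-05 without the non-targeting guide 2 library of experiment 2 and 0.197 without non-targeting guide 1 of experiment 2. DESeq2 gave 0.0300, but called INE2 in 0 of 6 fits that left out 1 library. The other alternatives ranged up to 1, and the difference between guides had an edgeR adjusted p of 0.415. Whether the counting used strand is not given in the sources used here, so reads of CA5B and of INE2 cannot be told apart by strand. CA5B, a mitochondrial carbonic anhydrase gene that ends 2106 bases before the guide 1 site, was at 55.4 and 61.6 CPM with guide 1. Its controls were at 62.5 and 62.5 CPM in experiment 1 and at 70.0 and 102 CPM in experiment 2. CA5B differed by −0.32 on the log2 scale (SE 0.14) with an edgeR adjusted p of 1.00. Its part in the INE2 counts was not tested.

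The other neighbours showed no shared direction. AP1S2, a clathrin adaptor subunit gene 35291 bases from the guide 1 site, had a log2 fold change of −0.02 (SE 0.13). Of 12 genes listed around ZRSR2, 10 were tested and 7 of these were lower, with a median of −0.04. The median over all 15102 tested genes was 0.00, and 7557 of them were higher. In experiment 1 the neighbours' median was −0.15 and in experiment 2 it was 0.11.

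Across the genome, the comparison of guide 1 with non-targeting asked which transcripts differ when this guide is present. edgeR with the experiment as a block called 0 of 15102 genes at an adjusted p under 0.05, or 0%. At an unadjusted p under 0.05 there were 154 genes higher (1.02%) and 384 lower (2.54%), where 755 in all are due by chance. DESeq2 with the block called 8 genes, or 0.053%, of which 3 were higher and 5 lower. The higher genes were TGM1, INE2 and IGFBP5, and the lower genes TNS4, FAM178B, MIR210HG, SPC24 and EPS8L3. The DESeq2 count was 0 in 4 of the 6 fits that left out 1 library, those without either guide 1 library or either experiment 1 control. It was 32 and 34 without non-targeting guide 1 or guide 2 of experiment 2. Without the non-targeting guide 2 library of experiment 2, edgeR called 28 of 15001 genes, 6 higher and 22 lower. Without non-targeting guide 1 of experiment 2 it called 0. All 28 had the same sign over the 6 libraries, which is no support because both fits share libraries. Of the 28, 10 belong to the 23 named genes. Those were picked on the same libraries or with earlier results known, so the overlap is no support.

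The 2 experiments shared little of the difference between guide 1 and its controls. Across genes the effects correlated at a Pearson's r of 0.10 and a Spearman's rho of 0.06, over 15102 genes that share libraries and are not independent replicates. Guide 1 stood above both controls in both experiments for 1491 genes (9.87%) and below both in both for 1693 (11.2%). It stood on opposite sides in 2935 of the 15102 genes. The test of a different guide 1 effect between experiments called 0 genes in edgeR (0%) and 0 in DESeq2 (0%), with 257 at an unadjusted edgeR p under 0.05 (1.7%). That test had a lone guide 1 library in each experiment, so 0 calls do not show that the experiments agree. Background was also measured between the 2 non-targeting guides. There edgeR called 1 gene, RORA (0.00673%), with 622 at an unadjusted p under 0.05 (4.19%), and DESeq2 called 0 (0%).

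TGM1 and EXOSC5 were given as markers of this comparison with earlier results known, so their direction is not independent evidence. TGM1 encodes transglutaminase 1, an enzyme that cross-links proteins in the cornified envelope of skin. It was at 5.48 and 4.81 CPM with guide 1. Its controls were at 1.84 and 2.10 CPM in experiment 1 and at 2.52 and 1.75 CPM in experiment 2. Guide 1 was above every control, at 251% of the control mean, and the log2 fold change was 1.28 (SE 0.19). The edgeR adjusted p was 0.337 and DESeq2 gave 0.00247. Without the non-targeting guide 2 library of experiment 2, edgeR gave 0.00147. Without non-targeting guide 1 of experiment 2 it gave 0.106, and 11 of the 13 alternatives did not pass.

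Guide 2 libraries had more TGM1 than guide 1 libraries, at 8.52 and 11.4 CPM. The difference of guide 1 from guide 2 was −0.95 on the log2 scale (SE 0.20, edgeR adjusted p 1.00). Of the 8 transglutaminase genes listed, 4 were tested, 2 higher and 2 lower, and TGM1 was the one at an unadjusted p under 0.05.

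EXOSC5 encodes a ring subunit of the RNA exosome, the complex that degrades RNA from its 3′ end. It was at 20.8 and 21.6 CPM with guide 1, against 29.1 and 26.9 CPM in the experiment 1 controls and 31.5 and 28.7 CPM in those of experiment 2. Guide 1 lay below every control, at 73.1% of the control mean. It differed by −0.45 on the log2 scale (SE 0.10) with an edgeR adjusted p of 1.00. Without the non-targeting guide 2 library of experiment 2 edgeR gave an adjusted p of 0.0198. Without non-targeting guide 1 of experiment 2 it gave 0.318, and 12 of the 13 alternatives did not pass. Guide 2 gave −0.51 (SE 0.11), and the guides differed by 0.06 (SE 0.12). Of 15 exosome genes tested, 8 were higher and 7 lower with a median of 0.03. EXOSC5 alone had an unadjusted p under 0.05, and the next smallest p belonged to DIS3L, a cytoplasmic exosome nuclease, at 0.19 (SE 0.12).

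Since no gene passed in edgeR, the naming rule filled each direction with the 10 genes of smallest unadjusted p that stood on one side of both controls in both experiments. They are not significant in edgeR over the 6 libraries, each with an adjusted p of 1.00. Without the non-targeting guide 2 library of experiment 2, 7 of the 20 passed. The 20 were picked by p on these same libraries, so this is no independent support. In that fit the edgeR adjusted p-values of the 7 were 8.66e-07 for FAM178B, 3.03e-04 for TNS4, 0.00199 for SPC24 and 0.00522 for IGFBP5. They were 0.0252 for ALDH3B1, 0.0270 for EPS8L3 and 0.0362 for ACPP. Without non-targeting guide 1 of experiment 2 instead, edgeR called 0 genes. The lower named genes number 12 with ZRSR2 and EXOSC5. The non-targeting guide 2 library of experiment 2 was the highest control for 8 of the 12, among them ZRSR2 but not EXOSC5. It was the lowest control for 2 of the 11 higher named genes, TGM1 and IDO1. The share over all genes was not counted, and most of these genes were picked by their side of these same controls. Whether either count is unusual was therefore not tested. The side in both experiments was part of the choice and is no sign of stability.

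Among the higher genes, 2 encode secreted proteins of the cell surroundings. IGFBP5, which binds insulin-like growth factors, was at 108 CPM with guide 1 against 80.8 and 77.0 CPM in experiment 1, and at 308 against 236 and 225 CPM in experiment 2. Its log2 effects in the 2 experiments were 0.45 and 0.42, and its DESeq2 adjusted p was 0.0224. MMP2, a matrix metalloproteinase, was at 57.1 CPM against 41.0 and 43.7 CPM in experiment 1, and at 29.2 against 24.0 and 24.8 CPM in experiment 2. Guide 2 gave log2 fold changes of 0.70 (SE 0.16) for IGFBP5 and 0.60 (SE 0.09) for MMP2, beside 0.43 (SE 0.08) and 0.35 (SE 0.09) for guide 1.

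IDO1 and IFIT2 are induced by interferon, the first as a tryptophan-degrading enzyme and the second as an antiviral RNA-binding protein. IDO1 was at 3.57 CPM against 2.03 and 2.35 CPM in experiment 1, and at 0.450 against 0.142 and 0.111 CPM in experiment 2, on few counts. With guide 2 it was at 1.42 and 0.539 CPM, so guide 2 lay below the controls in experiment 1. IFIT2 was at 14.9 CPM against 8.98 and 8.37 CPM in experiment 1, and at 14.1 against 12.3 and 13.5 CPM in experiment 2. Most of its difference was in experiment 1, with log2 effects of 0.78 and 0.13, and the edgeR adjusted p of that difference was 1.00.

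The remaining higher genes had log2 fold changes from 0.36 to 0.93. KIAA0556, whose product binds microtubules at the base of cilia, was at 0.36 (SE 0.10) and ALDH1L2, a mitochondrial folate enzyme, at 0.36 (SE 0.11). KIF1A, a kinesin motor, was at 0.65 (SE 0.21). ATP6V1E2, a subunit of the vacuolar proton pump, FMNL2, a formin, and the long non-coding RNA LINC01268 were at 0.82, 0.82 and 0.93 (SE 0.24, 0.27 and 0.29) on levels of 0.241 to 3.15 CPM. ATP6V1E2 and FMNL2 reached the average of 1 CPM only through their guide 1 libraries, so the rule could name them only as higher.

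The lower genes began with SPC24, a subunit of the NDC80 complex that ties kinetochores to microtubules. It was at 13.2 CPM with guide 1 against 21.1 and 19.9 CPM in experiment 1, and at 21.96 against 33.4 and 30.4 CPM in experiment 2. Guide 1 was below its own controls by about the same ratio in both experiments, with log2 effects of −0.63 and −0.53. DESeq2 gave an adjusted p of 0.0176.

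Other lower genes followed. TNS4, a tensin of focal adhesions, was at 12.2 CPM against 20.7 and 21.0 CPM in experiment 1, and at 32.0 against 49.8 and 81.3 CPM in experiment 2. EPS8L3, related to the EGF receptor substrate EPS8, was at 0.928 CPM against 2.07 and 1.40 CPM, and at 12.6 against 20.6 and 25.0 CPM. Their DESeq2 adjusted p-values were 0.00139 and 0.0272. PRSS8, a membrane-anchored serine protease, had a log2 fold change of −0.61 (SE 0.14), and BAIAP2L2, which binds curved membranes, −0.50 (SE 0.12). FAM178B was at 18.2 CPM against 33.5 and 32.4 CPM in experiment 1, and at 71.98 against 142 and 92.6 CPM in experiment 2, with a DESeq2 adjusted p of 0.00292.

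APLN, the apelin peptide hormone, was at 0.647 CPM against 1.00 and 1.49 CPM in experiment 1, and at 2.56 against 4.71 and 6.24 CPM in experiment 2. ACPP, an acid phosphatase, and ALDH3B1, an aldehyde dehydrogenase, had log2 fold changes of −0.49 (SE 0.11) and −0.42 (SE 0.10). MIR210HG, the host transcript of the hypoxia-responsive miR-210, falls outside the naming rule and is named because DESeq2 called it. It was at 2.19 CPM against 5.97 and 4.81 CPM in experiment 1, and at 9.24 against 12.7 and 23.9 CPM in experiment 2, with a DESeq2 adjusted p of 0.00712. Without the library that stands apart, the log2 fold change was −0.70 for TNS4, beside −0.91 with it, and −0.90 for APLN, beside −1.04.

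NLGN3, a neuronal adhesion protein gene, gave different values with the 2 guides. It was at 1.52 CPM with guide 1 against 2.23 and 2.38 CPM in experiment 1, and at 1.08 against 2.48 and 2.63 CPM in experiment 2. Guide 2 libraries were at 2.48 and 2.89 CPM, above those controls. The guides differed by −1.07 on the log2 scale (SE 0.25), with an edgeR adjusted p of 1.00.

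**Figure D2:**
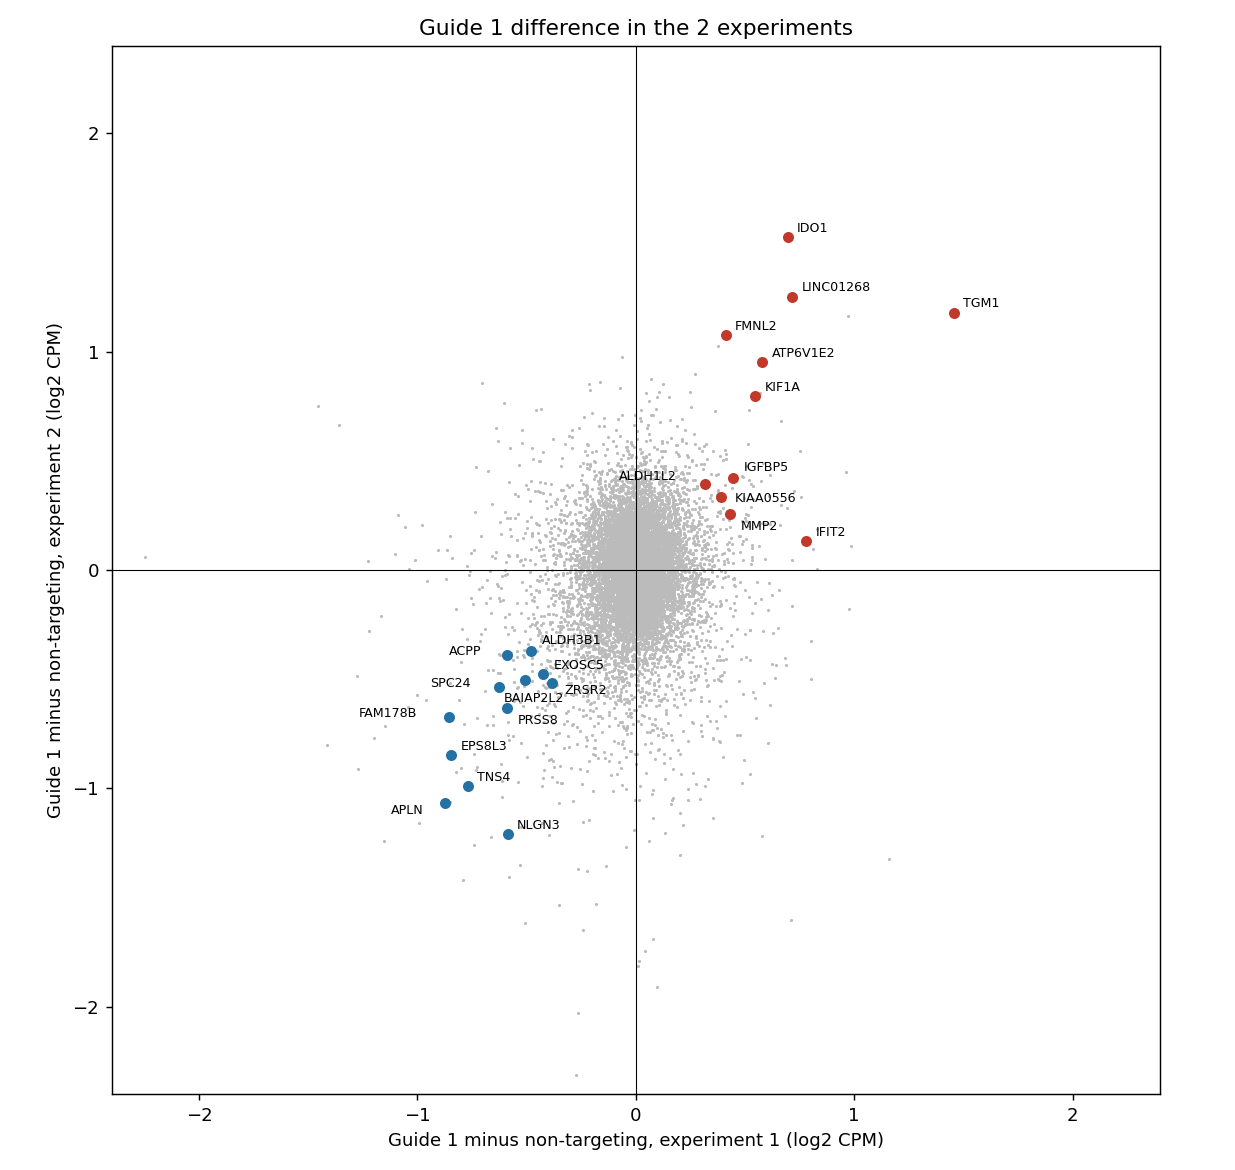
Difference between the guide 1 library and the mean of its 2 controls in experiment 1 (horizontal) and experiment 2 (vertical), in log2 CPM on linear axes. Grey points are genes with at least 1 CPM in the controls, and red and blue points are the named genes, higher and lower. The named genes lie in 2 corners because the rule asks for the same side in both experiments. Pearson's r was 0.10 over all 15102 tested genes and was not computed for the grey points alone.

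The genes checked on the annotation were the 23 named genes and INE2, PHEX, SLC4A1, MT1E, TMEM107, GPAA1 and MIR210HG. The neighbours CA5B and AP1S2 were not checked in their own right. Of the 30 genes checked, 17 overlap a gene of the other strand and 8 one of the same strand. The check compared whole gene spans, not exons, so whether these genes share counted reads with their partners was not tested. Among them are EXOSC5, IGFBP5, MMP2, KIAA0556, SPC24 and EPS8L3, while ZRSR2, TGM1, TNS4, APLN, ACPP and NLGN3 overlap none.

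The guides were set side by side on the 12 genes named for the pooled knockout comparison of both guides. These genes were chosen on libraries that include guide 1, and both comparisons share the same 4 controls, so their common direction is a description. PHEX, a cell-surface endopeptidase gene, was at 0.956 and 0.360 CPM with guide 1. Its controls were at 0.323 and 0.304 CPM in experiment 1 and 0.0851 and 0.166 CPM in experiment 2, and guide 2 was at 1.40 and 1.55 CPM. The log2 fold changes were 1.61 (SE 0.36) for guide 1 and 2.91 (SE 0.38) for guide 2. For GPAA1, part of the enzyme that attaches GPI anchors, they were −0.30 (SE 0.09) and −0.55 (SE 0.09). TMEM107, a protein of the ciliary transition zone, was at −0.73 (SE 0.21) and −0.87 (SE 0.23).

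Other genes of this list lay close together. SLC4A1, the red cell anion exchanger, was at −0.37 (SE 0.10) with guide 1 and −0.45 (SE 0.10) with guide 2. MT1E, a metallothionein, was at −0.43 (SE 0.11) and −0.33 (SE 0.11), and ACPP at −0.49 and −0.43 (SE 0.11 each). Each gene of the list had an adjusted p near 1 in the edgeR test of guide 1 against guide 2, which does not show that the guides act alike. That test called 0 of 15402 genes (0%), with 486 at an unadjusted p under 0.05 (3.16%), and DESeq2 called 1, KCNQ1OT1 (0.00649%), lower with guide 1. Against the same controls, guide 2 had 1 edgeR call, TGM1 (0.00654%), 730 genes at an unadjusted p under 0.05 (4.78%) and 35 DESeq2 calls (0.229%).

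**Figure D3:**
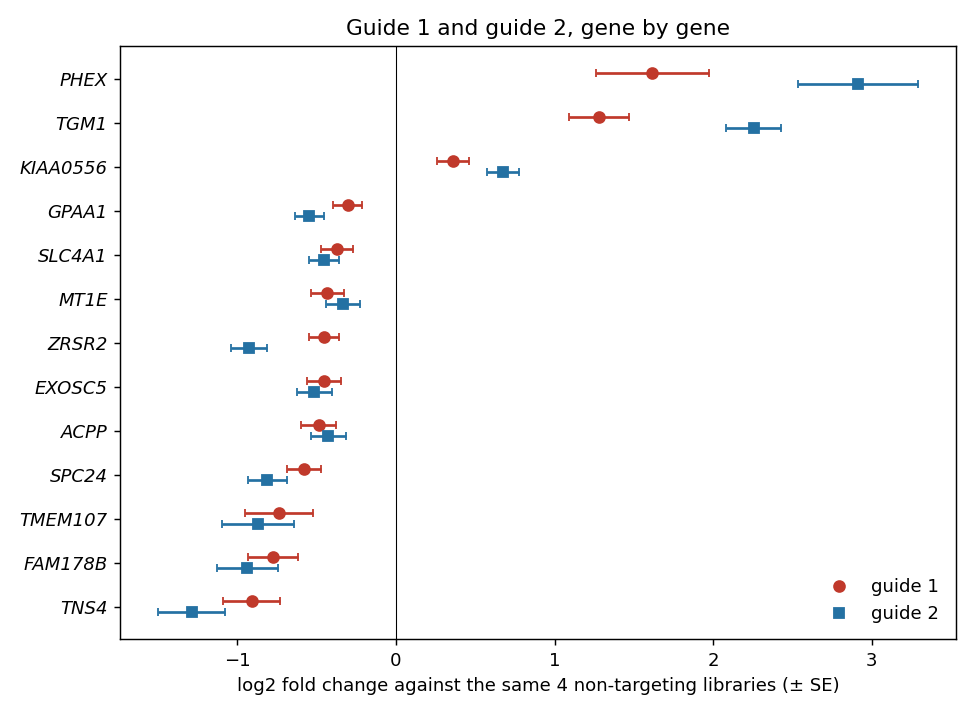
Log2 fold change (horizontal axis, linear) of ZRSR2 and the 12 genes of the pooled comparison for guide 1 (red circles) and guide 2 (blue squares), each from its own edgeR fit against the same 4 control libraries. Bars are standard errors derived from the edgeR F statistic, and the largest gaps are in PHEX (1.61 and 2.91) and TGM1 (1.28 and 2.25).

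Genes of the pathway around ZRSR2 were read from lists. Of 16 protein components of the minor spliceosome, 10 were higher and 6 lower, with a median of 0.02. ZRSR2 itself was the lowest and had the sole unadjusted p under 0.05. RBM41, which binds minor spliceosomal RNA, was the next by p, at 0.21 (SE 0.11). Of 11 factors of the 3′ splice site and of myeloid splicing disorders, 6 were higher and 5 lower. DDX41, a helicase mutated in myeloid neoplasms, was lowest at −0.26 (SE 0.10), with guide 1 at 96.8 and 92.7 CPM and controls at 106 to 132 CPM. Its highest control was again the library that stands apart.

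Genes that carry U12-type introns did not move one way. Of 34 such genes, recalled from general knowledge and not read from sequence, 19 were higher and 15 lower, with a median of 0.02. In the list 3 genes had an unadjusted p under 0.05, all lower: TMEM107, GPAA1 and VPS16, a subunit of vesicle-tethering complexes, the last outside the naming rule. That is 3 of 34, beside 2.54% of all tested genes lower at that p. TMEM107 and GPAA1 also belong to the pooled comparison list, which was chosen on libraries that include guide 1. The count of 3 is therefore partly built in and is no support. TMEM107 was at 2.33 CPM against 3.68 and 2.98 CPM in experiment 1, and at 4.92 against 7.30 and 10.95 CPM in experiment 2. GPAA1 was at 80.1 CPM against 95.9 and 92.1 CPM, and at 66.4 against 91.4 and 81.4 CPM. The genes stood below both controls in both experiments for 8 of 34 and above for 6 of 34, beside 11.2% and 9.87% of all tested genes. Of 10 factors of nonsense-mediated decay, which removes transcripts with early stop codons, 7 were higher with a median of 0.04, and 0 had an unadjusted p under 0.05.

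Interferon-stimulated genes were mostly higher with guide 1. Of 20 tested, 19 were higher, with a median log2 fold change of 0.12, where 7557 of 15102 tested genes were higher and their median was 0.00. At an unadjusted p under 0.05 there were 5, all higher, beside 1.02% of all genes, and 0 passed after adjustment. They are IFIT2, MX2, OASL, RSAD2 and OAS2, the last 3 named after their values were seen. MX2, an antiviral GTPase, was at 3.32 CPM against 2.62 and 2.65 CPM in experiment 1, and at 7.53 against 5.76 and 4.85 CPM in experiment 2. RSAD2, which encodes the antiviral enzyme viperin, was at 31.3 CPM against 22.2 and 26.1 CPM, and at 9.91 against 7.25 and 9.37 CPM.

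These interferon genes were higher in both experiments by the list median, 0.15 in experiment 1 and 0.13 in experiment 2. Guide 1 stood above both controls in both experiments for 9 of 20 genes, beside 9.87% of all tested genes. With guide 2, against the same controls, 18 of 20 were higher with a median of 0.15. Between the non-targeting guides 10 of 20 were higher in guide 2 than in guide 1, with a median of 0.00. Leaving out any 1 library kept the count between 16 and 19.

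Erythroid genes all had a negative log2 fold change over the 6 libraries. The 20 tested had a median of −0.15, and 2 of them had an unadjusted p under 0.05, beside 2.54% of all genes lower at that p. SLC4A1 was at 48.0 CPM with guide 1 against 59.7 and 53.9 CPM in experiment 1, and at 40.7 against 59.9 and 55.0 CPM in experiment 2. EPOR, the erythropoietin receptor, was at 103 CPM against 125 and 118 CPM, and at 83.9 against 106 and 93.8 CPM. Guide 1 lay below all 4 controls for SLC4A1, which also belongs to the pooled comparison list, chosen on libraries that include guide 1.

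The erythroid difference was larger in experiment 2, which was not tested for the list as a whole. The list median was −0.05 in experiment 1, where 7 of 20 genes were higher, and −0.25 in experiment 2, where 1 was. Without the guide 1 library of experiment 2, 13 of 20 were lower. The non-targeting guides also differed in this list, with a median of −0.14 for guide 2 against guide 1. With ZRSR2 guide 2, against the same controls, 4 of the 20 were higher and the median was −0.13. Among 16 megakaryocyte and platelet genes 11 were lower and the median was −0.10, with a median of 0.08 in experiment 1 and −0.19 in experiment 2. Between the non-targeting guides 14 of these 16 were higher in guide 2, with a median of 0.10, and ZRSR2 guide 2 had a median of 0.04. VWF, the von Willebrand factor gene, was at 19.0 CPM against 22.2 and 22.9 CPM in experiment 1, and at 10.7 against 11.5 and 39.1 CPM in experiment 2, so its log2 fold change of −0.70 (SE 0.40) rests on the library that stands apart.

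Signalling and growth lists stayed near the median of all genes. Of 14 JAK-STAT targets, 8 were lower with a median of −0.01. ID1, an inhibitor of basic helix-loop-helix factors, was at 46.9 CPM against 59.5 and 56.3 CPM in experiment 1, and at 36.5 against 41.3 and 38.5 CPM in experiment 2. OSM, the cytokine oncostatin M, was higher at 0.42 (SE 0.20). Of 18 ERK output genes 13 were lower (median −0.05), though 9 were higher in experiment 2. Of 21 tested p53 targets 12 were higher with a median of 0.01. Of 17 mitosis genes 11 were lower (median −0.05), and SPC24 was the one with an unadjusted p under 0.05. Between the non-targeting guides 14 of these 17 were higher in guide 2, with a median of 0.09, and with ZRSR2 guide 2 none of the 17 were higher.

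Markers of other cell types did not set the guide 1 libraries apart. Of 16 such genes 10 were tested, 7 of them lower, with a median of −0.12, and 0 had an unadjusted p under 0.05. Their summed level was 287 to 350 CPM with guide 1 and 305 to 412 CPM in the controls. In all 6 libraries 2 of the 16 had no count, the B cell gene MS4A1 and the keratinocyte gene KRT5. Fewer cells of a type and less RNA per cell cannot be told apart in such bulk samples.

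**Figure D4:**
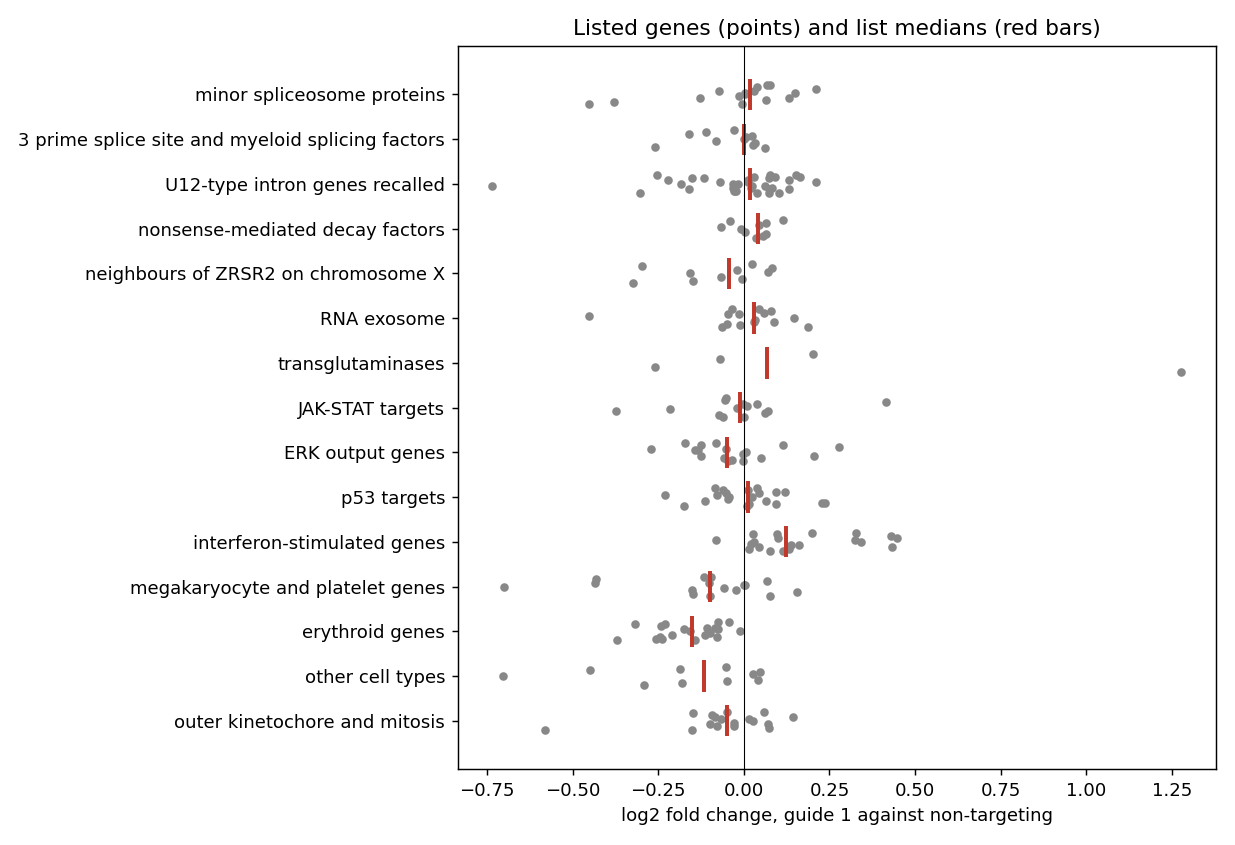
Log2 fold change of guide 1 against non-targeting (horizontal axis, linear) for each tested gene of 15 lists, with red bars at the list medians and vertical jitter without meaning. The interferon-stimulated genes have a median of 0.12 and the erythroid genes one of −0.15, with all 20 erythroid points to the left of 0.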

How the data were processed

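The authors deposited 1 table of expected counts per gene symbol for 8 libraries. Per the submitters' processing notes, cutadapt 1.11, RSEM 1.2.30 and hg19 were used. Aligner, annotation and strand setting are not given in the sources used here. RSEM shares ambiguous reads by probability, so near-identical genes are uncertain, and ZRSR2P1 was not analysed here. The expected counts were whole numbers as deposited, for 25435 symbols, of which 5151 had no count. Of the columns, 0 belonged to samples outside the series.

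Genes were filtered with filterByExpr, which left 15102, scaled by TMM and tested with edgeR 4.0.16's quasi-likelihood test in R 4.3.3, with the experiment as a block and Benjamini-Hochberg adjustment over all tested genes at 0.05. DESeq2 1.42.0 was an alternative. The SE beside an edgeR log2 fold change is its absolute value divided by the square root of the quasi-likelihood F statistic. It is not a separate estimate. log2 CPM used a prior count of 2. Per library, 1 count was 0.0142 to 0.0323 CPM. Fits were tested on simulated data.

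The block rests on experiment numbers in the titles. Deviations from arm means correlated at 0.735 to 0.832 between guide 1 and control libraries of the same experiment. With 2 guide 1 libraries the values across experiments are the same with the sign turned, and add nothing. The biological coefficient of variation was 0.107 with the block and 0.327 without.

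The members, lists and rules were chosen with earlier results of these data known. Named genes were ZRSR2, TGM1 and EXOSC5, then up to 10 per direction past the threshold by size of change, asking for 1 CPM or more on average and for guide 1 outside both controls on the same side in each experiment. Places left were filled by smallest unadjusted p. Within lists, the 2 genes of smallest p could be named. Guides were matched to GENCODE 29 transcripts on GRCh38, and gene coordinates are from that annotation, not the authors' build.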

Additional observations from a re-analysis of the deposited data

Results flagged for a closer look

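Among 32 groups of 4 control values, 3 held a library far from the others, where chance gives about 1 in 20 groups. The non-targeting guide 1 library of experiment 2 had 71521173 expected counts, while the other controls had 31106042 to 36544665. The same library had a count for 18398 genes, where its fellow controls had 17795 to 17825.

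INE2 was at 0.0831 CPM, or 3 counts, in the non-targeting guide 2 library of experiment 2, while the remaining controls were at 0 to 0.0142 CPM. The guide 1 libraries were at 0.731 and 0.585 CPM, above that control. The part of depth in these values was not tested.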

How the results depend on the processing

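Of 376 values under alternatives, 338 left the sign and the call as they were (for counts, within 1.5 times), 19 newly passed the threshold, 19 moved, and 0 reversed. The guide 1 count of 0 became 8 with DESeq2 and the block, 1 with all 8 libraries, and 0 to 28 when 1 library was left out, the 28 without non-targeting guide 2 of experiment 2. It was 0 without the replicate block and in the other settings. DESeq2 fits without 1 library, chosen after seeing the data, called 0 to 34 genes: 0 without either guide 1 library or either experiment 1 control, 32 without non-targeting guide 1 of experiment 2 and 34 without non-targeting guide 2 of experiment 2. Of the 8 genes called over all libraries, INE2 was called in 0 of those 6 fits and EPS8L3 in 1.

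With DESeq2, guide 1 against guide 2 called 1 gene. The guide 2 count was 0 without the replicate block and 35 with DESeq2. The count between non-targeting guides was 0 without the block, with DESeq2, with RLE size factors and without a filter, and 15 with at least 10 counts in every library. TGM1 was at 1.31 with DESeq2 and 1.14 to 1.47 without 1 library, ZRSR2 at −0.51 to −0.39 and EXOSC5 at −0.49 to −0.41. Listed genes at an unadjusted edgeR p under 0.05 numbered 23, and 8 without the block, beside 538 and 38 of all 15102 tested genes. The lists hold the 12 genes of the pooled comparison, chosen on libraries that include guide 1. All 12 were under that p with the block, so the count of 23 is no support. Erythroid genes lower numbered 13 to 20 without 1 library. Requiring 10 counts in every library removed INE2. With 2 guide 1 libraries, leaving out 1 leaves a lone sample assumed to vary like the controls.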
